A study of Mus musculus with 2 samples.

Results

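The protein genes of the cytosolic ribosome were followed in total RNA from mouse calf muscle. Members were chosen by name: genes called Rpl or Rps with a number and at most one letter of a, x or y, the stalk genes Rplp0, Rplp1 and Rplp2, and Rpsa, each with at least 1 protein-coding transcript. Rpl3 and the S6 kinase genes are left out by the rule. It gave 75 members of 55536 genes, 45 of the large subunit and 30 of the small subunit. No measured level entered the choice.

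Gastrocnemius, the large muscle of the calf, came from 2 adult female B6CASTF1/J mice, a cross of B6 with CAST, aged 8 to 10 months. Neither animal is labelled as treated or mutant, so the study holds a single group and the only contrast is between animals: replicate 2 (animal 3) over replicate 1 (animal 1). One donor identifier is given for the pair, beside separate animal numbers, and the libraries were counted as 2 animals. With 2 samples of 1 group no test exists, so values are given with their spread (SD, n = 2), which may be technical.

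The cytosolic ribosome makes the proteins encoded in the nucleus, and its small subunit reads the messenger RNA while its large subunit joins the amino acids. Each ribosomal protein is needed in about equal number, apart from the acidic stalk proteins, which stand in several copies on each ribosome. Many of their messenger RNAs begin with a C followed by a run of pyrimidines, the 5′ terminal oligopyrimidine (TOP) tract, through which the mTORC1 pathway and the RNA-binding protein LARP1 control their translation. In mammals nearly every one of these genes has processed pseudogenes, copies of its spliced messenger RNA pasted back into the genome, so that a short read can fit the gene and its copies alike.

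Replicate 2 held 43421652 expected counts and replicate 1 held 42714567, so a count of 0 allowed up to 3 counts, or 0.0691 CPM in replicate 2 and 0.0702 CPM in replicate 1, counting error only. Levels are in TPM, reads per length scaled to a fixed total over all features. That total includes the small RNA genes Rn7s1 and Rn7s2, whose summed share was 33.6% in replicate 2 and 27.0% in replicate 1, and every other TPM is lower where their share is higher. The 7 muscle fibre markers summed to 91506 TPM in replicate 2 and 103857 TPM in replicate 1. The Schwann cell marker Mbp had 3.20 TPM in replicate 2 and 20.12 TPM in replicate 1, and the 3 fibroblast markers summed to 75.3 and 103 TPM. Erythroid markers summed to 111 TPM in replicate 2 and 150.2 TPM in replicate 1, those of adipocytes to 43.5 and 57.6 TPM, of endothelium to 21.9 and 26.8 TPM and of leukocytes to 2.09 and 2.37 TPM. The satellite cell marker Pax7 had 0.410 and 0.400 TPM, and none of these markers was at 0. The part of other cell types in the values below was not tested. In bulk tissue, fewer cells of a type and less RNA per cell cannot be told apart.

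The start of the transcript carries the TOP tract, so the 30 bases around it, 20 before and 10 from the start onward, are shown first for 8 members with a pyrimidine run there and 3 without. Sequences and starts are those of RefSeq on GRCm38.p6, in which 56 of 75 members were matched. Capitals mark the first run of C followed by at least 4 bases of C or T that begins within 10 bases of the annotated start.
Rpl38, chr11:114668560-114668589, plus strand: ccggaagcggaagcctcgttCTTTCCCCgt
Rps15a, chr7:118116138-118116167, minus strand: gcccactctctttctgccatCTTCCCTCgc
Rps6, chr4:86857358-86857387, minus strand: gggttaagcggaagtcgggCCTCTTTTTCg
Rpl28, chr7:4792945-4792974, plus strand: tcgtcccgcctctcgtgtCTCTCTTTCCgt
Rps10, chr17:27635235-27635264, minus strand: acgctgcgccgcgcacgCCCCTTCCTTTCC
Rplp2, chr7:141447631-141447660, plus strand: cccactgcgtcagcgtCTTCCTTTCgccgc
Rpl15, chr14:18270977-18271006, minus strand: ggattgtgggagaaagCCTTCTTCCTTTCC
Rps27, chr3:90213639-90213668, minus strand: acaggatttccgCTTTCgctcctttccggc
Rpl41, chr10:128549159-128549188, minus strand: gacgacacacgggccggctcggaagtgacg
Rps25, chr9:44407694-44407723, plus strand: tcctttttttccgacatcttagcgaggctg
Rpsa, chr9:120127746-120127775, plus strand: tggctgtgggttatttaaggacgtcatttc
These windows were chosen after the sequences had been seen, to show how the run sits against the start. In Rpl38 and Rps15a the run begins at the annotated first base and is 8 bases long. In Rps6 it begins 1 base before the start and in Rpl28 2 bases before, and it is 10 bases long in both. The run of Rpl15 is 17 bases long and goes on past the window. Rps25 has a run of pyrimidines too, but farther than 10 bases before its annotated start, so it does not count here.

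A run of this kind was found in 34 of the 56 members, 60.7%, against 34.4% of 27025 genes with a window and 37.2% of 7613 other detected protein-coding genes. The exact letters CTTTCC on the transcript strand within 20 bases of the start were found in 10 members, 17.9%, against 2.30% of all genes and 2.29% of the other detected ones. The motifs overlap, since CTTTCC within 10 bases of the start also counts as a run. Over the whole window of 250 bases before and 50 after the start, on either strand, CCGGAAG stood in 23 members (41.1%), in 9.93% of all genes and in 22.1% of the other detected genes. AAGATGG stood in 9 members (16.1%), against 7.28% of all genes and 9.18% of the other detected ones. The TATA-box letters TATAAA stood in 6 members (10.7%), against 15.7% of all genes and 8.56% of the other detected ones. The members with a run had a median of 178 TPM and those without 228 TPM, with wide overlap of the ranges, 38.6 to 466 TPM and 14.0 to 421 TPM. No level of translation was measured.

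All 75 members reached 1 TPM in each animal, and all lay above 8.15 TPM, the median of the 9673 detected nuclear protein-coding genes. Together they summed to 15395 TPM in replicate 2 and 16839 TPM in replicate 1, a mean of 16117 ± 1021 TPM (SD, n = 2). As a share of the TPM of nuclear protein-coding genes this was 3.56% in replicate 2 and 3.49% in replicate 1, 3.52 ± 0.0463% on average. Of the reads on those genes, which unlike TPM are not divided by length, the members took 0.769% in replicate 2 and 0.731% in replicate 1. By mean TPM, 61 members stood among the 500 highest nuclear protein-coding genes, and their ranks ran from 53 to 3340 with a median of 251.

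The highest members lay well above the family's median of 192 TPM in replicate 2 and 215 TPM in replicate 1. Rplp1, an acidic stalk protein, was the highest with 591 TPM in replicate 2 and 685 TPM in replicate 1. Rps27, a small subunit protein with a zinc finger, had 447 and 486 TPM. In this quantification, the first deposited one, these genes lay above every other member in both animals. Also among the 10 highest were Rpl41, which encodes the shortest ribosomal peptide, at 406 and 436 TPM, Rps25 at 376 and 429.9 TPM, Rps14 at 399 and 404 TPM and Rps29 at 384 and 417 TPM. Within these 4 genes the order by replicate 2 differs from the order by replicate 1, so neighbours were not separated by more than their spread. Rpl7 (331 and 358 TPM) and Rpl26 (311 and 359 TPM) belong to the 10 highest too, of which 5 are of the small subunit. The second deposited quantification gave another order at the top. There Rpl41 (514 TPM in replicate 2 and 571 TPM in replicate 1) and Rps29 (512 and 575 TPM) lay above Rplp1 and Rps27.

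The stalk is the arm of the large subunit that recruits the elongation factors, built of Rplp0 with dimers of Rplp1 and Rplp2. Rplp1 averaged 638 ± 66.1 TPM, Rplp2 333 ± 23.8 TPM and Rplp0 292 ± 25.0 TPM (SD, n = 2). The difference of Rplp1 from both partners exceeded the spread between the animals in this quantification. In the second deposited quantification, made directly from the reads, Rplp1 had 359 TPM in replicate 2 and 406 TPM in replicate 1, against 297 and 344 TPM for Rplp0 and 279 and 293 TPM for Rplp2. The order of the stalk genes by mean then changed, with Rplp0 above Rplp2, and the lead of Rplp1 was smaller.

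The middle of the family was dense, with 30 members between 200 and 350 TPM. Among the genes of known further roles it held Rpsa, the laminin-receptor protein of the small subunit, with 217 TPM in replicate 2 and 235 TPM in replicate 1, and Rpl13a, known in mammals for a role in silencing inflammatory transcripts, with 300.2 and 296 TPM. Just under it, Rps6, the substrate of the S6 kinases, had 181 TPM in replicate 2 and 197 TPM in replicate 1. Rps27a, made as a fusion with ubiquitin, had 184 and 210.3 TPM. In TPM, replicate 1 was the higher in 3 of these 4 genes, but that direction rests on the scaling. Under the TMM scaling of counts used below, log2 ratios of replicate 2 over replicate 1 were 0.03 for Rpsa and 0.06 for Rpl13a. They were 0.05 for Rps6 and -0.02 for Rps27a.

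At the low end 14 members fell under 100 TPM. Rpl27 was the lowest by mean with 11.6 TPM in replicate 2 and 16.4 TPM in replicate 1, and Rpl5, which binds the 5S RNA together with Rpl11 and can hold back Mdm2, had 13.8 and 15.6 TPM. Rpl11 had 62.4 TPM in replicate 2 and 78.1 TPM in replicate 1. Rpl10, an X-linked protein that joins the large subunit late in its assembly, had 61.1 and 65.7 TPM. The other 6 of the 10 lowest were Rpl21 (29.5 ± 3.44 TPM), Rpl36a (38.6 ± 4.30), Rpl12 (40.4 ± 5.60), Rpl27a (41.6 ± 2.33), Rps23 (53.9 ± 1.75) and Rps12 (59.1 ± 3.03; SD, n = 2). Of these 10 genes, 8 belong to the large subunit. From the lowest to the highest mean the members spanned 45.6-fold, and the SD of their log2 levels was 1.09.

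**Figure D1:**
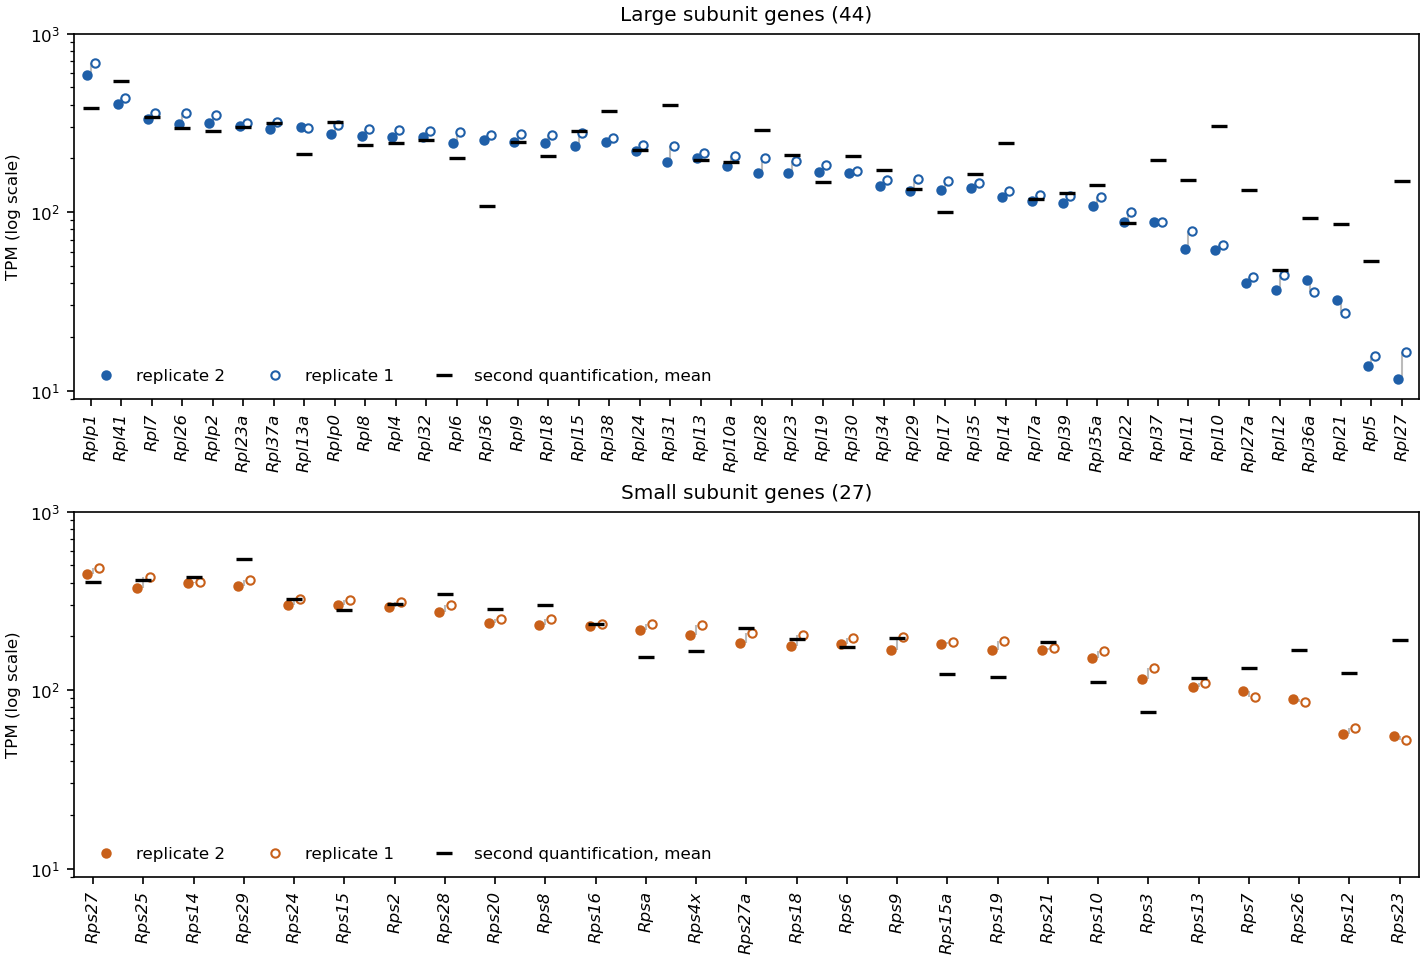
TPM on a log scale for 71 of the 75 members, large subunit genes above and small subunit genes below, ordered by mean; filled dots are replicate 2, open dots replicate 1, and black bars the mean of the second quantification. The animals lie close together for each gene, while the bars part from the dots most at the low end, as for Rpl27, Rpl5 and Rpl10.

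Most members have near-identical copies elsewhere in the genome, the highest as well as the lowest. A copy was counted where another gene held, on its transcript strand, at least 50% of the 31-base words of the member's main coding sequence. By that criterion 66 of 75 members had at least 1 copy and 9 had none. There were 289 copies, 261 of them processed pseudogenes, 12 transcribed processed pseudogenes and 14 annotated as protein-coding. Rpl21 had the most, 19. Of all expected counts on members and copies, the copies took 22.8% in replicate 2 and 23.3% in replicate 1. In the second quantification they took 13.8% in replicate 2 and 14.3% in replicate 1, although the sum of members and copies was nearly the same, 0.978 times that of the first quantification in both animals.

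Rpl27 (ENSMUSG00000063316.13, mm10 chr11:101442298-101445529, plus strand) shows the division most clearly. It received 186 expected counts in replicate 2 and 127 in replicate 1, while the pseudogenes Gm11518 and Rpl27-ps3, which hold its whole coding sequence, received 1094 each in replicate 2 and 1013 each in replicate 1. The second quantification gave Rpl27 itself 2343 counts in replicate 2 and 2153 in replicate 1, and each of those pseudogenes 52.2 and 38.2. Rpl27 plus copies agreed between the quantifications within 1.04-fold, while Rpl27 alone differed 14.4-fold. In TPM, the second quantification put Rpl27 at 143 in replicate 2 and 155 in replicate 1.

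Rpl10 (ENSMUSG00000008682.13, mm10 chrX:74270812-74273135, plus strand) followed the same pattern, with most reads on 1 of its 8 copies. It had 1393 expected counts in replicate 2 and 1275 in replicate 1, and Rpl10-ps3 on chromosome 9, annotated as protein-coding, had 6046 and 5658. The second quantification gave Rpl10 7762 counts in replicate 2 and 7237 in replicate 1, and Rpl10-ps3 0 in both animals. Rps23, a decoding-centre protein, had 796 and 639.8 counts beside 3203 and 3150.0 on Rps23-ps1, against 3549 and 3152 beside 668 and 824 in the second quantification. For Rpl5 the quantifications both left most reads on the transcribed pseudogene Gm15500, 5479.6 in replicate 2 and 5304 in replicate 1 by the first and 4702 and 4693 by the second. Rpl5 itself had 836 and 838 counts by the first quantification and 1925 and 1774 by the second. Which locus the reads of these genes came from cannot be told from the deposited tables.

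Over the family, 14 members had at least 50% of the reads of gene plus copies on the copies: Rpl5, Rpl7a, Rpl10, Rpl12, Rpl21, Rpl27, Rpl27a, Rpl28, Rpl35, Rpl36a, Rpl37, Rps7, Rps12 and Rps23. Their median was 56.5 TPM, and their counts in the second quantification were 1.03 to 14.4 times those of the first, with a median of 2.10. With copies included the median was 1.04 and the range 0.840 to 1.10. Among the 31 members with under 5% of reads on copies the median level was 277 TPM, and the second over first ratio ran from 0.794 to 1.23 for the gene alone. In the second quantification 5 members had at least 50% on copies. The share of reads on copies was 44.8% to 93.1% in the 10 lowest members and 0.148% to 6.87% in the 10 highest. The gene's own reads enter both its level and this share, so a gene given few reads has a higher share by construction.

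With the reads of all copies assigned to the parent gene, the spread of the family was smaller. The levels then ran from 89.7 TPM for Rpl36a to 685 TPM for Rplp1, a 7.64-fold span, and the SD of log2 levels was 0.59. The second quantification without any such assignment gave an 11.4-fold span and an SD of 0.74. The number of members within 10% between quantifications was 57 with copies included and 38 for the genes alone, and 17 genes alone differed more than 1.5-fold. With copies included 2 members differed by more than that, Rplp1 and Rpl36, both lower in the second quantification. Rpl36 had 2301 expected counts in replicate 2 and 2142 in replicate 1 by the first quantification, against 643 and 606 by the second. Rplp1 had 7589 and 7668 by the first, against 3999 and 3884. Both are short genes with a single annotated transcript, and the cause was not tested.

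**Figure D2:**
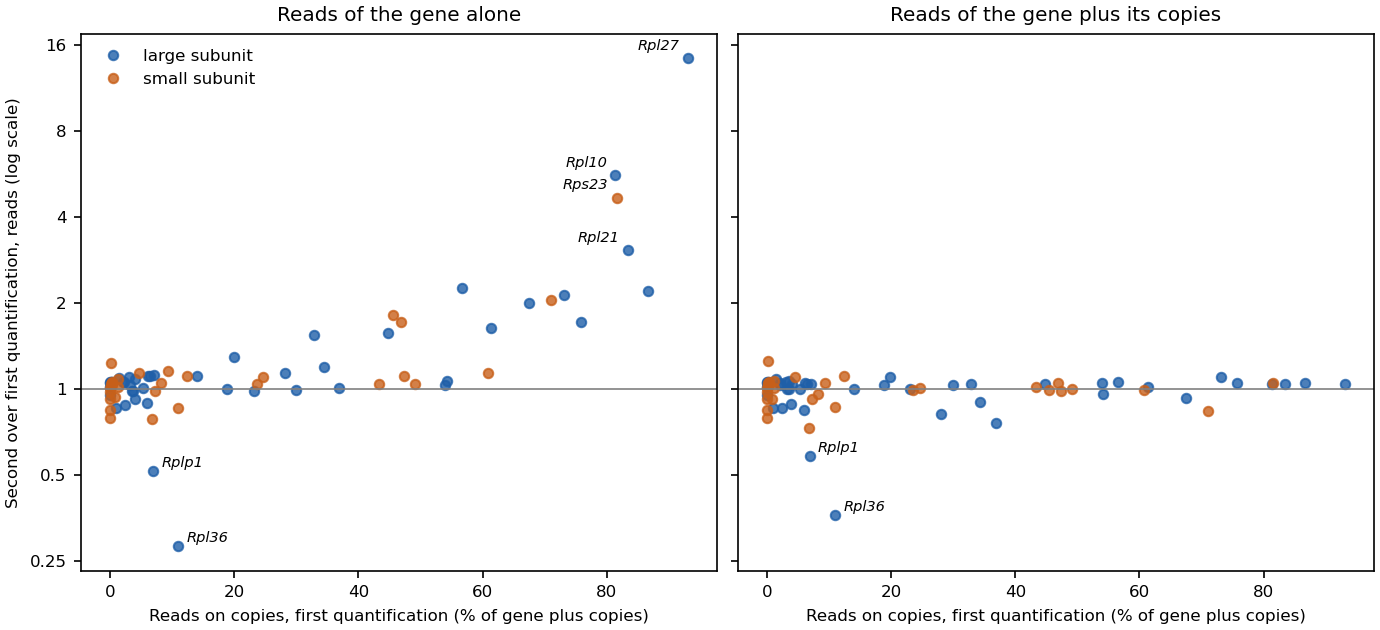
Reads in the second over the first quantification (log scale, mean of both animals) against the share of reads on copies, 1 dot per member, for the gene alone on the left and the gene plus its copies on the right. The highest ratios on the left stand at high shares of copies, up to 14.4 for Rpl27, and the ratios on the right lie within 1.5-fold of 1 except for Rplp1 and Rpl36.

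The deposited posterior SD of a count, which states how firmly the first quantification divides shared reads, did not mark most of these genes. It exceeded 5% of the mean count in 4 members: Rpl10 (10.0% in replicate 2 and 13.2% in replicate 1), Rps12 (9.39% and 13.0%), Rpl27 (9.92% and 10.2%) and Rpl36a (5.11% and 5.98%). Rpl11 followed with 4.26% and 4.18%. Of the 14 members with at least 50% of reads on copies, 10 stayed at or below 5%. Rpl5, for example, had 3.36% in replicate 2 and 3.30% in replicate 1.

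TPM differed between quantifications also where counts did not. In TPM the largest gains in the second quantification were in Rpl27 (log2 ratio 3.41), Rpl10 (2.26), Rpl5 (1.86), Rps23 (1.83) and Rpl27a (1.69), all genes with at least 50% of reads on copies. The largest falls were in Rpl36 (-1.27), Rplp1 (-0.74), Rps3 (-0.73), Rps19 (-0.60) and Rps15a (-0.56), with Rpsa at the same value. Rps3, a DNA-repair-linked protein of the small subunit, had nearly equal counts, 5224 in replicate 2 and 5169.8 in replicate 1 by the second quantification against 5689 and 5599 by the first. The effective length of a member's main coding transcript, by which counts are divided, was the annotated length less 100 bases in the first and less 247 bases in the second quantification at the median. For Rps27, the shortest at 345 bases, it was 245 against 109, while its mean TPM was 466 by the first and 403 by the second quantification. For Rps3 it was 1808 against 1661, while the mean TPM was 125 against 75.4. The same count over a shorter length gives a higher TPM, and what lowered the TPM of these genes was not tested.

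The subunits were close in level. The median member of the large subunit had 181 TPM in replicate 2 and 206 TPM in replicate 1, against 210.0 and 233 TPM for the small subunit. The ratio of medians, large over small, was 0.861 in replicate 2 and 0.885 in replicate 1. It was 1.03 and 0.985 in the second quantification, and with copies included the medians were 266 TPM for the large and 259 TPM for the small subunit. The ratio thus crossed 1 with the quantification in replicate 2 and stayed below 1 in replicate 1. The SD of log2 levels was 1.24 among large and 0.79 among small subunit genes in the first quantification, and 0.76 and 0.70 in the second.

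Some ribosomal protein genes are not taken by the name rule. Fau, which encodes a small subunit protein fused to a ubiquitin-like one, had 199 TPM in replicate 2 and 220.40 TPM in replicate 1. Rack1, a scaffold protein on the small subunit, had 187 TPM in replicate 2 and 218 TPM in replicate 1. Rps3a1 had 185 and 215 TPM, and Rpl36al is set beside Rpl36a among the paralogs. Their levels lay inside the range of the members. Paralogs of the members were mostly lower than the gene they resemble. Rps27l had 103 TPM in replicate 2 and 116 TPM in replicate 1, below Rps27, and Rpl7l1 had 14.5 and 16.0 TPM, below Rpl7. Rps27rt had 4.26 TPM in replicate 2 and 5.84 TPM in replicate 1 by the first quantification, and 0 in both animals by the second. Its 37.5 and 44.9 expected counts equal those found on the copies of Rps27. Rps4l, annotated as a transcribed processed pseudogene, had 0.52 TPM in replicate 2 and 0.70 TPM in replicate 1, below Rps4x. Rpl22, whose loss in mice raises its paralog, had 87.9 TPM in replicate 2 and 99.7 TPM in replicate 1, against 59.80 and 68.20 TPM for Rpl22l1. Rpl36al was the exception, with 135 and 146 TPM beside 41.7 and 35.6 TPM for Rpl36a, which reached 89.7 TPM with its copies included. In the second quantification Rpl36al had 93.7 TPM in replicate 2 and 106 TPM in replicate 1, against 84.3 and 100.1 TPM for Rpl36a. The testis paralog Rpl10l was listed at 0 in both animals, and Rpl39l had 0 counts in replicate 2 and 1 in replicate 1, against 1843 and 1771 for Rpl39.

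The 75 genes varied little between the animals. No member differed 1.5-fold or more in either direction, where 5.56% of the 11125 genes tested, those averaging 50 or more expected counts, and 2.88% of the 8009 nuclear protein-coding genes in the members' range of counts did. Of all tested genes 1.98% were 1.5-fold or more higher and 3.58% lower in replicate 2, against 0 members each way. The median log2 ratio of replicate 2 over replicate 1 was 0.05 under TMM scaling, and 57 of 75 members lay above 0, against 49.4% of all tested genes. Under scaling to the ERCC spike-ins the median of the members was -0.07, with 14 of 75 above 0 against 22.7% of all tested genes, whose median shifted to -0.12. This scaling moves every gene by the same amount, so the direction of the members relative to 0 rests on the scaling. The ratios ran from -0.16 to 0.52, and 69 members, 92.0%, lay within 0.2 of 0. Among the 8009 genes in the members' range of counts 75.1% did, and the SD was 0.11 for the members and 0.25 for those genes. That range ran from 156 to 11944 mean expected counts, with Rpl27 at its low end. Within it the genes were not matched to the members by count. The narrow spread was not particular to the members: the SD was 0.11 for mitochondrial ribosomal protein genes and 0.09 for translation factors. It was 0.14 for ribosome assembly genes, 0.18 for TOP regulators and mTORC1 genes and 0.23 for polymerase I and its factors.

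The highest and lowest ratios changed when copies were counted. Rpl27 had the highest log2 ratio, 0.52, then Rpl36a (0.37), Rpl21 (0.36), Rps7 (0.34) and Rps23 (0.29), all with at least 50% of reads on copies. Counted with their copies these became 0.12, -0.09, 0.07, 0.15 and 0.05. At the other end Rpl11 had -0.16, which became 0.00 with copies, and Rpl31 had -0.09, which became -0.06. Rpl28 and Rps9 lay at -0.07. Across the family the SD of the ratios was 0.05 with copies counted and the range -0.09 to 0.15.

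Other genes of protein synthesis were set beside the members. The 77 mitochondrial ribosomal protein genes tested, which serve the separate ribosome of the mitochondrion, had a median log2 ratio of 0.05 with 53 higher in replicate 2, led in level by Mrps21 at 142.0 TPM in replicate 2 and 151.0 TPM in replicate 1. Mrpl30 (124 and 151 TPM), Mrpl42 (120.3 and 124 TPM) and Mrpl33 (107 and 114 TPM) followed. The 78 of the list summed to 2388 TPM in replicate 2 and 2581 TPM in replicate 1, against 15395 and 16839 TPM for the 75 cytosolic genes. The 24 translation factors had a median of 0.02, with Tpt1, itself a TOP messenger RNA, the highest at 1629 and 1833 TPM, then Eef1a2, the muscle and nerve form of elongation factor 1 alpha, at 847 and 948 TPM, Eif1 at 674 and 714 TPM and Eef2 at 534 and 639 TPM. The 21 ribosome assembly genes had a median of 0.07 and the 8 genes of RNA polymerase I and its factors -0.00. Both lists were low in level: the highest assembly genes were Npm1 (51.1 and 58.5 TPM), Ncl (35.9 and 41.4 TPM), Nop10 (25.2 and 25.9 TPM) and Nop56 (11.8 and 14.6 TPM). For polymerase I they were Polr1d (34.2 and 37.6 TPM), Taf1d (32.7 and 26.8 TPM), Rrn3 (15.1 and 17.5 TPM) and Polr1a (14.2 and 17.9 TPM). The 14 TOP regulators and mTORC1 genes had -0.05; their highest were Eif4ebp2 (67.70 and 80.10 TPM), Larp1 (40.70 and 48.50 TPM), Maf1 (42.00 and 46.50 TPM) and Tsc2 (34.80 and 45.20 TPM). No tested gene of these lists passed 1.5-fold, and the closest was Fbl, the fibrillarin of small nucleolar RNPs, at a log2 ratio of 0.50. Mrpl23, under the count minimum and so not tested, had 37.1 expected counts in replicate 2 and 14.1 in replicate 1. Its level rests on the quantification: 0.840 TPM in replicate 2 and 0.590 TPM in replicate 1 by the first, against 55.4 and 65.8 TPM by the second. Of 294 ribosomal protein pseudogenes named as such, 37 were tested. In replicate 2, 2 of them were higher and 4 lower by 1.5-fold or more, 16.2%, and the SD of their ratios was 1.19. The 294 summed to 2072 TPM in replicate 2 and 2447 TPM in replicate 1, against 1058 and 1338 TPM by the second quantification. How far the division of reads shared with the parent genes enters these ratios was not tested.

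**Figure D3:**
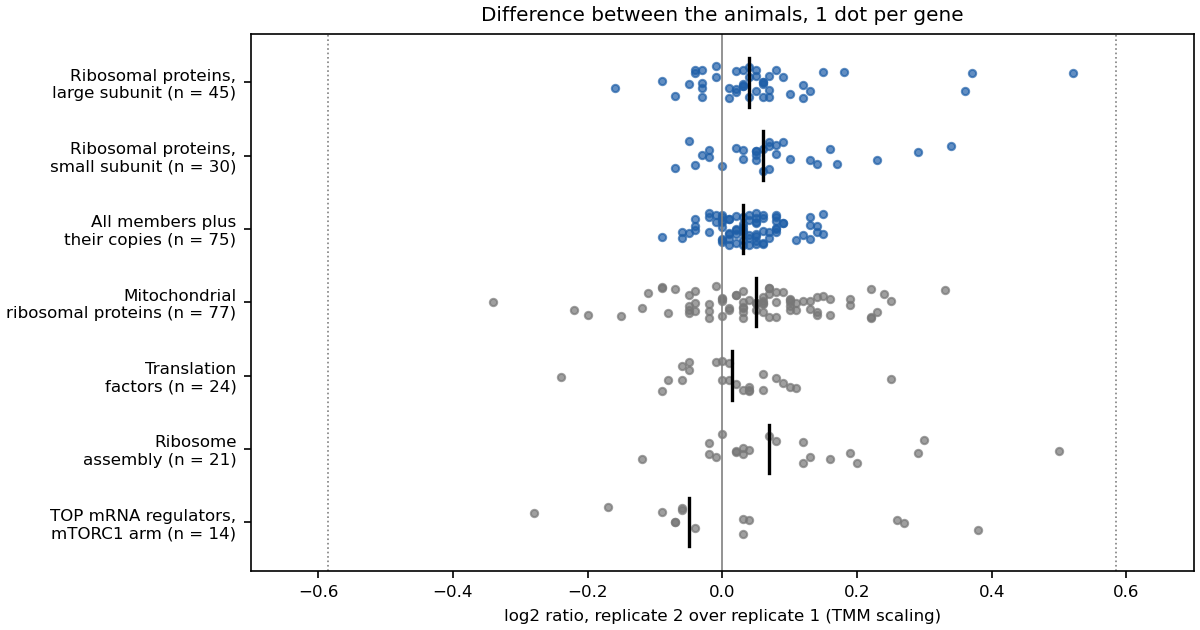
Log2 ratio of replicate 2 over replicate 1 (TMM scaling), 1 dot per gene, with the median of each row as a bar and 1.5-fold either way as dotted lines. The members sit in a narrow band around 0.05 with a few high values, which move inward in the row that counts copies.

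Ribosomal protein genes are annotated with many transcripts, 465 for the 75 members, of which 214 are protein-coding, 168 retain an intron, 61 are other processed transcripts and 22 are marked for nonsense-mediated decay. The coding ones held 82.4% of the members' TPM in replicate 2 and 82.5% in replicate 1. In the second quantification they held 73.1% in replicate 2 and 73.3% in replicate 1, with 13.0% and 12.9% on processed transcripts, against 4.62% and 5.08% in the first. The animals agree and the quantifications differ: the most abundant transcript was the same in both animals for 71 members by the first and 72 by the second, but in all 4 sets for 41.

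In 37 members coding transcripts held over 90% in all 4 sets. Rps29 is an example, and Rps6 held 99.8% in replicate 2 and 99.9% in replicate 1 by the first quantification and 94.0% and 93.5% by the second. Rplp1 and Rpl36 are counted too, but their only annotated transcript is a coding one, so their share could not differ. In 11 members a transcript without a coding label was the most abundant in all 4 sets: Rps13, Rps16, Rps18, Rps20, Rps23, Rps26, Rpl23, Rpl24, Rpl27a, Rpl35 and Rpl37. For Rpl35 coding transcripts held 2.58% in replicate 2 and 3.93% in replicate 1 by the first and 1.45% and 1.58% by the second quantification. For Rps20 they held 2.00% and 2.18%, against 0.846% and 0.959%. How far reads separate these models from the coding ones was not tested.

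Other members changed class with the quantification. Rpsa was at 5.57% coding in replicate 2 and 7.51% in replicate 1 by the first and 68.9% and 63.3% by the second, and Rpl14 was at 99.7% and 90.4% against 7.31% and 15.4%. Rpl13a was at 75.9% in replicate 2 and 67.6% in replicate 1 by the first, against 5.83% and 6.69% by the second. The counts of the whole gene differed less, as for Rpl13a with 4333 and 4094 by the first quantification and 4299 and 4008 by the second.

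**Figure D4:**
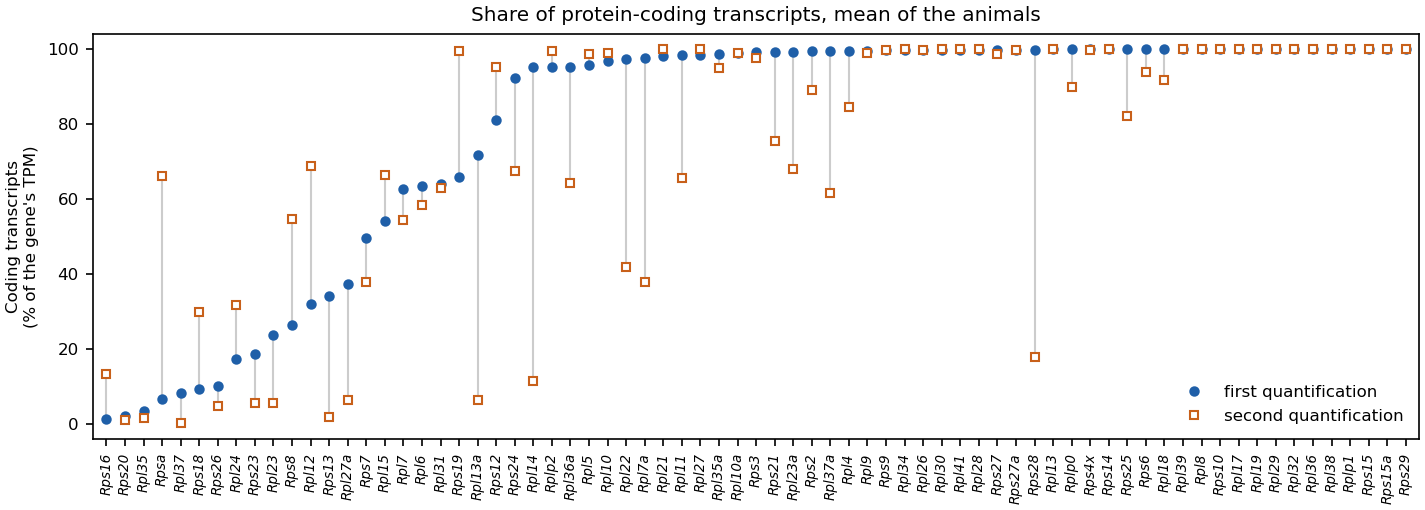
Share of the gene's TPM on protein-coding transcripts for 71 of the 75 members, mean of both animals, by the first quantification (filled dots) and the second (open squares), ordered by the first. Over 90% of TPM is on coding transcripts in all 4 sets for 37 of the 75 members, while Rps20 and Rpl35 sit near 0% and genes such as Rpl14 and Rps28 lie far apart.

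The members are spread over 19 chromosomes, with 14 on chromosome 7 and 4 on the X (Rpl10, Rps4x, Rpl36a and Rpl39). Rps4x had 203 TPM in replicate 2 and 232 TPM in replicate 1, and Rpl39 had 112 and 123 TPM. The other X-linked members, Rpl10 (61.1 and 65.7 TPM) and Rpl36a (41.7 and 35.6 TPM), were among the 10 lowest in the first quantification. By the second quantification Rpl10 had 290.2 and 315 TPM and Rpl36a 84.3 and 100.1 TPM. The autosomal members ran from a mean of 14.0 to 638 TPM in the first, a range too wide to set the X-linked ones apart. Within 28 members lie 54 small nucleolar RNA genes, Rpl4 the most with 5. Of those 54 genes, 13 had at least 1 expected count over both animals in the first quantification, Gm26448 within Rpsa the most with 285.00 in replicate 2 and 213.00 in replicate 1, and the second quantification gave it 0 and 1.0. Genes of 99 bases or fewer had no counts, and the shortest with counts, Gm23202, has 129 bases. Effective length was the annotated length less 100 bases in the first and 247 in the second quantification at the median of the members. Genes this short, and the 203-base Gm26448 in the second quantification, have little or no effective length. Their low counts therefore do not show that they were silent. Other genes overlap 20 members on the opposite strand and 5 on the same strand. The kit keeps strand, but whether the counting used it is not stated, so reads of opposite-strand pairs are uncertain. Gm20388, annotated as protein-coding over Rpl13 on the same strand, had 403 counts in replicate 2 and 1192 in replicate 1, against 4388 and 4104 for Rpl13, and reads of the pair could be divided either way.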

How the data were processed

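Total RNA (300 ng, ribosomal RNA reduced, strand-specific kit, ERCC spike-ins, per the labels) was sequenced from 2 animals. Per the deposited descriptions, reads were placed on mm10 with GENCODE M21; the first quantification came from transcriptome alignments and the second directly from reads, and for both the program is not given in the sources used. The expected counts the authors deposited estimate the reads of each gene or transcript, without normalization and with reads that fit several genes divided among them. The deposited TPM values are expected counts over effective length, scaled to 1 total per library. The deposited percent values, the part of a gene's TPM on each transcript, were not needed, since shares were computed from TPM. Transcripts of the second quantification were added up by gene. All 55536 gene identifiers matched GENCODE M21, which gave symbols and positions.

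Expected counts were rounded to whole numbers; ratios of CPM used edgeR 4.0.16 (R 4.3.3) with TMM scaling, a prior count of 2 over genes averaging 50 or more expected counts, and were tested on simulated data. Copies were found by shared 31-base words. Alternatives were scaling by spike-ins or by DESeq2 1.42.0 size factors, a prior of 0.5, other count minimums, posterior mean TPM, the second quantification and leaving out each animal. Tables used Python 3.11.15, pandas 2.3.3 and NumPy 2.4.6.

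Named are the 10 highest and 10 lowest members, the 5 largest ratios each way between animals and between quantifications, the 5 highest posterior SDs, the stalk genes, certain genes of known role, members with a paralog and the 4 highest genes of comparison lists. Members and lists were chosen with earlier results of these data known, and the comparison with copies and genes outside that rule, such as Rpl14 and Rps26, after their values were seen. Allele of origin was not analysed here. A few genes taken by that rule, and a few members in the plots that name genes, are left out here.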

Additional observations from a re-analysis of the deposited data

How the results depend on the processing

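Of 41 alternative values of 8 results, 32 stayed within the spread between animals or 1.5 times a count, or within 0.1 for a log2 ratio. Some of these could not have come out otherwise. With 2 animals, leaving 1 out cannot move a summed TPM, a share or a ratio of medians past the SD. With no member past 1.5-fold, a 2-fold limit or fewer members must give none as well. The summed TPM of 16117 became 35237 when rescaled over nuclear protein-coding genes, and ran from 15395 to 16839 with 1 animal left out. The share of 3.52% became 4.00% in the second quantification and ran from 3.49% to 3.56% with 1 animal left out. The ratio of subunit medians, 0.873, became 1.01 in the second quantification, 1.33 as a ratio of sums and 1.02 with copies included, an alternative chosen after seeing the data, and ran from 0.861 to 0.885 with 1 animal left out. The median log2 ratio of 0.05 became -0.07 under spike-in scaling, where all genes shifted by -0.12, and a ratio needs both animals, so none could be left out. Members with a posterior SD over 5% of the mean count numbered 4, against 34 where over 1% was enough, and 4 with either animal left out. The most abundant transcript was the same throughout in 41, in 71 within the first quantification alone, and in 41 to 48 with 1 animal left out. Members with at least 50% of reads on copies numbered 14, but 5 in the second quantification, again chosen after seeing the data. The causes were not tested. No member passed 1.5-fold under any alternative tried. No paired analysis was possible because the 2 animals form a single group.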
